A study of Mus musculus with 9 samples.

Results

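Genes that pattern progenitors of the ventral forebrain were followed in embryonic mouse medial ganglionic eminence (MGE) with and without Ctnnb1, the gene for beta-catenin. The 10 members were taken by symbol from the 48526 genes of the deposited table: Nkx2-1, Nkx6-2, Olig1, Olig2, Gsx1, Gsx2, Lhx2, Six3, Otx2 and Lmo1. Each symbol matched 1 Ensembl identifier, and all 10 passed the filter of a mean of at least 10 normalized read counts. The comparison asks how transcript levels of these factors differ when Ctnnb1 is deleted in cells that have expressed Cre under Nkx2.1 control.

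RNA was sequenced from 4 control and 5 knockout libraries of MGE at embryonic day 14.5, all on a C57BL/6 background. Every library carried Nkx2.1-cre and the Rosa26-YFP reporter, so Cre was present in both groups. Knockouts were Ctnnb1fl/fl, control replicate 4 was Ctnnb1fl/wt, and the remaining controls had no floxed Ctnnb1 allele in their labels. Cre acts only in cells with Nkx2-1 driven expression, and the labels leave unsaid if the tissue was sorted and if separate embryos were used. The p-values therefore measure only how far these libraries spread, and that spread may be technical. Counted reads were 5120585 to 5569444 per library.

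The MGE is a proliferative zone of the ventral telencephalon that makes cortical interneurons, striatal interneurons and early oligodendrocyte precursors. Its progenitors are set apart from the lateral ganglionic eminence above and the preoptic area below by homeodomain and basic helix-loop-helix (bHLH) transcription factors that are placed by hedgehog, FGF, BMP and Wnt signals. Nkx2-1 is the selector of the region. The Gsx factors act mainly in progenitors of the lateral eminence, the Olig factors in ventral progenitors and the oligodendrocyte lineage, and Lhx2, Six3 and Otx2 in forebrain fields laid down earlier.

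The upstream sequence of the 4 members that fell in knockout, Olig2, Six3, Lhx2 and Lmo1, is shown here beside that of Nkx2-1, which did not pass the test. Each stretch is the part of the 250 bases before a RefSeq start (build GRCm38.p6, the assembly of mm10) that no annotated exon of the gene covers, written 5′ to 3′ on the gene's strand. Capitals mark matches, on either strand, to the CCAAT box, the TATA box, the homeodomain core and the E-box given after the sequences.
Olig2, chr16:91225300-91225456, forward strand: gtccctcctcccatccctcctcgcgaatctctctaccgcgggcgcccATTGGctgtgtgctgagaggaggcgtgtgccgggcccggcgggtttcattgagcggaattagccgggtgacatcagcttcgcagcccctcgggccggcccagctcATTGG
Six3, chr17:85620584-85620833, forward strand: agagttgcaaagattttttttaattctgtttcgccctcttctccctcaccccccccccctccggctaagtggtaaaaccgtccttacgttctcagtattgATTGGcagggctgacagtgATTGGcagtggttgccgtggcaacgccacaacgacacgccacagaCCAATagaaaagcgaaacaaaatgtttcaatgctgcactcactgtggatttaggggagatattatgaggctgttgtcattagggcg
Lhx2, chr2:38339031-38339280, forward strand: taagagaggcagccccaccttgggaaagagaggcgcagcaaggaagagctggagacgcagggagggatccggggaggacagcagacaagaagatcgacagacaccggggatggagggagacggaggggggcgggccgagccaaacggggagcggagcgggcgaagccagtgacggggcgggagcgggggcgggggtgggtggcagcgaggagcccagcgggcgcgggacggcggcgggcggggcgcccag
Lmo1, chr7:109175208-109175457, reverse strand: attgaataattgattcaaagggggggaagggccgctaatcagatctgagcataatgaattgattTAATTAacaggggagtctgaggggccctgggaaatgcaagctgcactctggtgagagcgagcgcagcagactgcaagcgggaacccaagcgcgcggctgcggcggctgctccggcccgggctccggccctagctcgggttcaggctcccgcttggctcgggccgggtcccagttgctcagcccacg
Nkx2-1, chr12:56536909-56537158, reverse strand: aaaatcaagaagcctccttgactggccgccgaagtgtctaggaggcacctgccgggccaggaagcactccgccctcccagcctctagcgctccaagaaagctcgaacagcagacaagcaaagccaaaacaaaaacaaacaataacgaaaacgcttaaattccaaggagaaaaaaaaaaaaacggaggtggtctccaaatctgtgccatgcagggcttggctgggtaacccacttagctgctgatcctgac
Of the 10 members, 9 had an entry in the promoter table, with 14 start sites, and Olig1 had none. TCF/LEF factors, through which beta-catenin complexes bind DNA, were searched by 1 spelling of their motif, CTTTGAT. This spelling was found on neither strand in any of the 14 member windows of 300 bases (250 before and 50 after the start), against 3.73% of all 32851 windows. The GLI motif GACCACCC of hedgehog effectors was also found in 0 of 14, against 0.807% of all. With shares this low over all windows, 0 of 14 is a likely outcome for any genes and sets the members apart in no way. Variant spellings of both motifs were not searched, so absence of such sites is not shown. CCAAT, bound by the factor NF-Y, was found at 1 start of each of 4 members, Nkx6-2, Olig2, Six3 and Otx2, and in 37.4% of all windows. TAATTA, a core bound by many homeodomain proteins, was found only at starts of Otx2 and Lmo1, in 4 of 14 windows against 5.29% of all. The windows of Lmo1 overlap and hold the same TAATTA, which is thus counted more than once. Windows of the same gene are not independent, so the 4 of 14 is no measure of excess. CAGATG, an E-box, was found in 2 windows, of Lhx2 and Otx2, and in 17.2% of all. TATAAA was found in 3 windows and in 13.6% of all. No 2 of these matches overlapped in a member window. The matches are descriptions of letters in short windows.

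Of the 10 members, 4 fell in knockout (Lhx2, Olig2, Lmo1 and Six3), 1 rose (Olig1) and 5 did not pass an adjusted p of 0.05 (Gsx2, Nkx2-1, Gsx1, Nkx6-2 and Otx2). Across all 13780 genes tested, 17.3% were called lower and 17.2% higher by the same fit. The fit was limma on log2(normalized count + 1), with Benjamini-Hochberg adjustment over all genes. A log2 fold change is the knockout mean less the control mean of these log values, so changes of low genes are understated. The estimate was below 0 for 9 of the 10, and their median was -0.56, against 51.0% of genes below 0 and a median of -0.01 over all genes tested. Groups did not overlap for the 4 members that fell, all lower in knockout. Of all genes tested, 29.1% did not overlap, and 14.6% did not overlap with the knockouts lower.

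The count of lower members depended on some single libraries and on the filter. It stayed at 4 without control replicate 2, 3 or 4 and without knockout replicate 1, 3 or 5. It was also 4 with other pseudocounts, other scalings, the replicate block and the plain variance model. Without control replicate 1 it was 7, with Nkx2-1, Gsx1 and Gsx2 added, and without knockout replicate 2 it was 8, with Nkx6-2 added to those. Without control replicate 1, 14.6% of all genes were called lower, and without knockout replicate 2, 17.5%. Lhx2, Olig2, Lmo1 and Six3 were called lower in all 20 fits that were run. Without knockout replicate 4 there were 5, with Otx2 added, against 15.0% of all genes. Against control replicates 2 and 3 alone there were 6, with Nkx2-1 and Gsx1 added, against 8.08%. With control replicate 1 and knockout replicate 4 both left out, 6 members were lower (those 4, Nkx2-1 and Otx2), against 12.5% of all genes. With no filter there were 6 (Nkx2-1 and Gsx2 added), against 7.28% of all genes, and with a minimum mean of 50 there were 5 (Gsx2 added, adjusted p = 0.0495), against 21.0%.

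**Figure D1:**
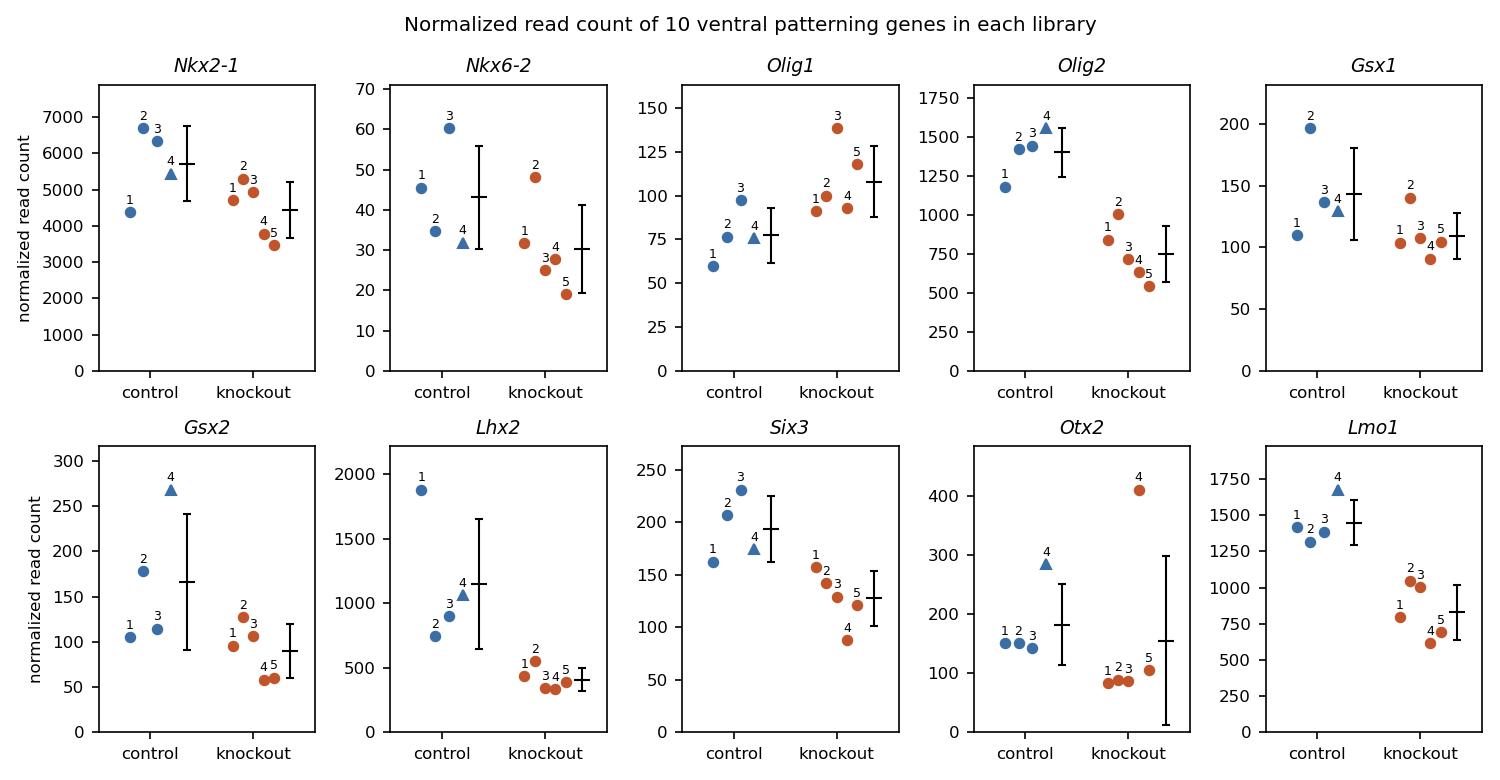
Normalized read count (vertical axes, from 0) of each member in the 4 control and 5 knockout libraries; digits are replicate numbers, the triangle is the Ctnnb1fl/wt control replicate 4, and bars beside the points are mean and SD. Olig2, Lhx2, Six3 and Lmo1 separate the groups, Otx2 reaches 410.5 in knockout replicate 4, and Lhx2 reaches 1878 in control replicate 1.

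Some cell cycle and stem cell genes also fell in knockout. In bulk tissue, fewer cells of a type and less RNA per cell cannot be told apart. Of 8 markers of proliferating ventricular zone cells, 5 fell (Mki67, Top2a, Nes, Vim and Hes5) and 0 rose, against 17.3% of all genes called lower. The median log2 fold change of the 8 was -0.83. By limma, Sox2 (-0.24, adjusted p = 0.0579), Pax6 (1.09, adjusted p = 0.565) and Fabp7 (0.04, adjusted p = 0.870) were not called. The summed normalized count of the 8 was 30781 to 36866 in control and 15461 to 23875 in knockout. Top2a, the DNA topoisomerase of dividing cells, fell by 0.88 on the log2 scale, and Vim, an intermediate filament of radial glia, fell by 0.90. The part of these markers in the results below was not tested.

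The labelled tissue was checked on MGE genes that are no members. All 9 genes of the list, among them Lhx6, Lhx8, Dlx1, Dlx2, Gad1 and Gad2, were measured, with a summed normalized count of 16409 in control replicate 1, 21999 to 29113 in control replicates 2 to 4 and 28555 to 35667 across the knockouts. In knockout 6 of the 9 rose, against 17.2% of all genes tested. Dlx1 and Dlx2, homeobox genes of subpallial neurogenesis, were the most abundant; Dlx1 rose (log2 fold change 0.48, adjusted p = 0.00916), and Dlx2 had a log2 fold change of 0.13 (adjusted p = 0.469). Ctnnb1 itself was at 9545 to 9967 in control and 5477 to 7661 in knockout (log2 fold change -0.54, adjusted p = 0.000811). Read counts cover the whole gene, so they do not show which exons were transcribed.

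Markers of other tissue were unevenly spread over the libraries, with the highest sums in control replicate 1, knockout replicate 4 or knockout replicate 5, depending on the list. The summed count of 8 markers of cortical excitatory neurons and their progenitors was 2647 in control replicate 1, 72.7 to 173 in control replicates 2 to 4 and 164 to 592 across the knockouts; Eomes and Neurod6 were the most abundant, at 571 and 626 in control replicate 1. The sum of 8 choroid plexus markers, led by Ttr and Enpp2, was 2968 in that library, 62.6 to 125.6 in control replicates 2 to 4 and 121 to 514 across the knockouts. The sum of 7 markers of septum and Cajal-Retzius cells, led by Zic1 and Reln, was 2052 in knockout replicate 4, 359 to 993 in the other knockouts and 216 to 939 in the controls. Zic1 was at 858 in knockout replicate 4. Knockout replicate 5 had the highest knockout sums of the cortical and choroid plexus lists (592 and 514). No gene of these 3 lists was called in the fit over all libraries, and none of their genes was at 0 in every library.

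Nkx2-1 (chromosome 12, 56531958 to 56536908, mm10, reverse strand, protein-coding) encodes the homeodomain factor that sets MGE identity. Its normalized read counts were 4389, 6698, 6345 and 5439.8 in control replicates 1 to 4, and 4713, 5304, 4940.1, 3786 and 3466 in knockout replicates 1 to 5. The groups overlapped through control replicate 1, which lay below knockouts 1, 2 and 3; knockouts 4 and 5 lay below every control. Controls averaged 5718 ± 1033 (SD, n = 4) and knockouts 4442 ± 782 (SD, n = 5), which is 77.7% of control. By limma its log2 fold change was -0.36 (SE 0.147, 95% interval -0.68 to -0.05, adjusted p = 0.0706). It was -0.49 (adjusted p = 0.0189) without control replicate 1 and -0.43 (adjusted p = 0.0339) without knockout replicate 2. Nkx2-1 passed in 5 of the 20 fits, and its estimate ranged from -0.57 to -0.28 over the 20. Gm26973, an antisense gene that overlaps Nkx2-1 over 1566 bases, was at 50.5 to 137 in control and 70.2 to 86.6 in knockout; whether the counting used strand is not given in the sources used here.

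Nkx6-2 (chromosome 7, 139579376 to 139582797, reverse strand) encodes a homeodomain repressor found in progenitors near the border of the medial and lateral eminences. It was the lowest member per kilobase of exon. Its counts were 45.5, 34.8, 60.3 and 31.9 in the controls and 31.7, 48.1, 25.1, 27.7 and 19.1 in the knockouts, in replicate order. Knockout replicate 2 lay among the controls, while the other 4 knockouts lay below every control, knockout replicate 1 by a small margin. The log2 fold change was -0.51 (95% interval -1.07 to 0.05, adjusted p = 0.144 by limma), and -0.69 (adjusted p = 0.0415) without knockout replicate 2, the only one of 19 fits in which it passed. Without control replicate 3 the estimate was -0.34 (adjusted p = 0.373). The gene overlaps Inpp5a on the opposite strand over 277 bases, and Inpp5a was at 118 to 163 in control and 120 to 134 in knockout.

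Olig2 (chromosome 16, 91225457 to 91228677, forward strand) encodes a bHLH repressor of ventral progenitors that later drives the oligodendrocyte lineage. Its counts were 1182, 1422, 1443 and 1555 in control replicates 1 to 4 and 842, 1003, 716, 634 and 542 in knockout replicates 1 to 5. Every knockout lay below every control, with a gap between 1003 and 1182. The mean fell from 1401 ± 157 (SD, n = 4) to 747 ± 180 (SD, n = 5), 53.4% of control. Its log2 fold change was -0.93 (SE 0.156, adjusted p = 0.00083 by limma), and it ranged from -1.05 to -0.82 over the 20 fits.

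Olig1 (chromosome 16, 91269772 to 91271933, forward strand), the neighbouring bHLH gene, went the other way. Its counts were 59.6, 76.5, 97.5 and 75.7 in the controls and 91.0, 99.999, 138, 92.8 and 118 in the knockouts. Control replicate 3 overlapped knockouts 1 and 4; the other 3 knockouts lay above every control. The mean rose from 77.3 ± 15.5 (SD, n = 4) to 108 ± 20.0 (SD, n = 5), with 0.48 as the log2 fold change (SE 0.168, 95% interval 0.12 to 0.84, adjusted p = 0.0388 by limma). The call was lost when control replicate 1, 2 or 4, or knockout replicate 3 or 5, was left out (adjusted p = 0.121, 0.0636, 0.0801, 0.100 and 0.0737). It was also lost with control replicates 2 and 3 only (log2 fold change 0.30, adjusted p = 0.304) and with control replicate 1 and knockout replicate 4 both left out (0.41, adjusted p = 0.103).

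The ratio of Olig1 to Olig2 was higher in each of the 5 knockouts than in each control. On the log2 scale controls averaged -4.18 ± 0.21 (SD, n = 4) and knockouts -2.76 ± 0.49 (SD, n = 5), a difference of 1.41. By exact permutation of the libraries (two-sided, the smaller tail doubled) p was 0.0159, the lowest value this design can give. Adjusted over the 11 pairs of members compared, p was 0.0582, which does not pass. At the lowest possible p, a pair could pass only if more of the 11 pairs had also reached it. No conclusion is drawn from the failure to pass. Both genes are also used in the oligodendrocyte lineage. The sum of 5 other markers of oligodendrocyte precursors, led by Pdgfra and Cspg4, was 142 to 247 in control and 168 to 322 in knockout, highest in knockout replicate 5; 4 of the 5 were tested, and 0 rose and 0 fell. Pdgfra, a growth factor receptor of these cells, was at 54.3 to 136 in control and 70.2 to 190 in knockout. Cspg4, a surface proteoglycan, was at 58.3 to 68.7 and 64.3 to 88.0. All 5 markers had a higher mean in knockout than in control. Sox10 had a log2 fold change of 0.604 (adjusted p = 0.253 by limma), with 4 of the 5 knockouts above every control. Lhfpl3 was under the filter and so was not tested. Its counts were low, at 0.996 to 7.08 in control and 12.04 to 18.18 in knockout, without overlap.

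Gsx2 (chromosome 5, 75075601 to 75077893, forward strand) encodes a homeodomain factor of ganglionic eminence progenitors that is strongest in the lateral eminence. Its counts were 105, 178, 115 and 268 in control replicates 1 to 4 and 95.9, 127, 106, 58.4 and 60.5 in knockout replicates 1 to 5. Control replicate 4 was the highest library, and knockouts 2 and 3 lay within the range of the controls. Controls averaged 166 ± 75.1 (SD, n = 4) and knockouts 89.6 ± 29.7 (SD, n = 5), 53.9% of control, and -0.85 on the log2 scale (SE 0.315, 95% interval -1.55 to -0.15, adjusted p = 0.0596 by limma). It was -1.03 (adjusted p = 0.0356) without control replicate 1, -0.99 (adjusted p = 0.0365) without knockout replicate 2, and -0.59 (adjusted p = 0.136) without control replicate 4.

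Gsx1 (chromosome 5, 147188696 to 147190947, forward strand), its paralog, acts in the same progenitors and favours their exit from the progenitor pool. Counts were 110, 197, 137 and 130 in the controls and 104, 140, 107, 90.9 and 105 in the knockouts. In knockout 4 of the 5 libraries lay below every control, the nearest at 107 against 110, and knockout replicate 2 lay among the controls. Its log2 fold change was -0.37 (SE 0.168, 95% interval -0.73 to -0.01, adjusted p = 0.104 by limma). It was -0.48 (adjusted p = 0.0472) without control replicate 1, -0.46 (adjusted p = 0.0429) without knockout replicate 2 and -0.20 without control replicate 2. The log2 ratio of Gsx1 to Gsx2 averaged -0.14 ± 0.60 over the controls (SD, n = 4) and 0.34 ± 0.35 over the knockouts (SD, n = 5) (exact two-sided permutation p = 0.27, adjusted 0.371), so a difference between these paralogs was not shown.

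Lhx2 (chromosome 2, 38339281 to 38369733, forward strand) encodes a LIM homeodomain factor of forebrain progenitors that selects cortical identity in the dorsal telencephalon. Its counts were 1878, 744, 901 and 1064 in control replicates 1 to 4 and 435, 549, 341, 333 and 387 in knockout replicates 1 to 5. Control replicate 1, the library with the highest sum of cortical markers, was the highest, and the highest knockout lay below the lowest control. The mean fell from 1147 ± 505 (SD, n = 4) to 409 ± 88.3 (SD, n = 5), 35.7% of control. Its log2 fold change was -1.42 (SE 0.260, adjusted p = 0.00306 by limma). It was -1.15 (adjusted p = 0.000738) without control replicate 1 and -1.02 (adjusted p = 0.0051) with control replicates 2 and 3 only.

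Six3 (chromosome 17, 85613608 to 85629302, forward strand) encodes a homeodomain factor of the anterior neural plate and eye field that is also used in striatal neurons. Its counts were 163, 207, 231 and 174 in the controls and 157, 142, 129, 88.0 and 121 in the knockouts. The groups were close but did not overlap, with knockout replicate 1 at 157 and control replicate 1 at 163. The mean fell from 194 ± 31.1 (SD, n = 4) to 128 ± 26.0 (SD, n = 5), with -0.61 as the log2 fold change (SE 0.162, adjusted p = 0.00954 by limma). Six3os1, a long transcript that overlaps Six3 on the opposite strand over 4791 bases, was at 59.6 to 92.4 in control and 37.1 to 65.4 in knockout and fell by 0.63 on the log2 scale (adjusted p = 0.0213). Without stranded counting, reads of the overlap cannot be told apart.

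Otx2 (chromosome 14, 48657677 to 48673819, reverse strand) encodes a homeodomain factor of forebrain and midbrain that is also strong in choroid plexus. Its counts were 151, 151, 143 and 285 in control replicates 1 to 4 and 83.1, 89.4, 86.3, 410.5 and 106 in knockout replicates 1 to 5. Knockouts 1, 2, 3 and 5 lay below every control, and knockout replicate 4 lay above every control. The log2 fold change over all libraries was -0.50 (95% interval -1.68 to 0.68, adjusted p = 0.485 by limma). Without knockout replicate 4 it was -0.94 (adjusted p = 0.00438), and without control replicate 4, the highest control, it was -0.27 (adjusted p = 0.752). Against control replicates 2 and 3 alone it was -0.25 (adjusted p = 0.8288), and it passed in 2 of the 20 fits. The sum of the choroid plexus markers was 414 in knockout replicate 4, 473 in knockout replicate 2 and 514 in knockout replicate 5, and 2968 in control replicate 1, where Otx2 was at 151. The septal and Cajal-Retzius markers were highest in knockout replicate 4, and Otx2os1, on the strand opposite Otx2, reached 17.2 in that library and 0.96 to 8.09 elsewhere. The part of these markers in the Otx2 value was not tested.

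**Figure D2:**
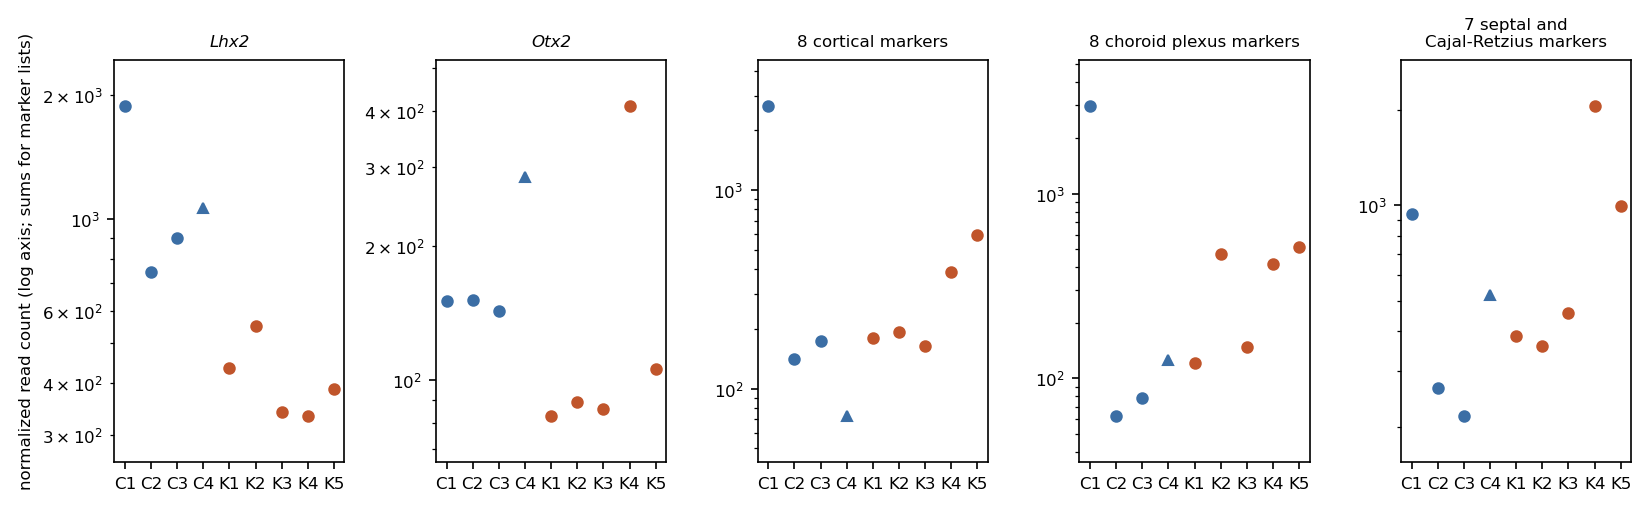
Normalized read count on log axes of Lhx2, Otx2 and the summed counts of 3 marker lists in each library (C1 to C4 control, triangle Ctnnb1fl/wt; K1 to K5 knockout). Cortical and choroid plexus sums peak in control replicate 1, at 2647 and 2968, together with Lhx2. The septal and Cajal-Retzius sum peaks in knockout replicate 4, at 2052, together with Otx2. Below these peaks the order of libraries differs. Control replicate 4 had the lowest cortical sum, 72.7, with Lhx2 at 1064. Knockout replicate 5 had a septal and Cajal-Retzius sum of 993 with Otx2 at 106. The part of these markers in either gene was not tested.

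Lmo1 (chromosome 7, 109138572 to 109175207, reverse strand) encodes a LIM-only protein that binds no DNA itself and competes with LIM homeodomain factors for their cofactor Ldb1. Its counts were 1419, 1316, 1387 and 1676 in control replicates 1 to 4 and 794, 1047, 1005, 615 and 691 in knockout replicates 1 to 5. All knockouts lay below all controls. The mean fell from 1449 ± 157 (SD, n = 4) to 831 ± 190 (SD, n = 5), 57.3% of control, with -0.83 as the log2 fold change (SE 0.149, adjusted p = 0.00118 by limma). Over the 20 fits the estimate ranged from -0.92 to -0.73.

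**Figure D3:**
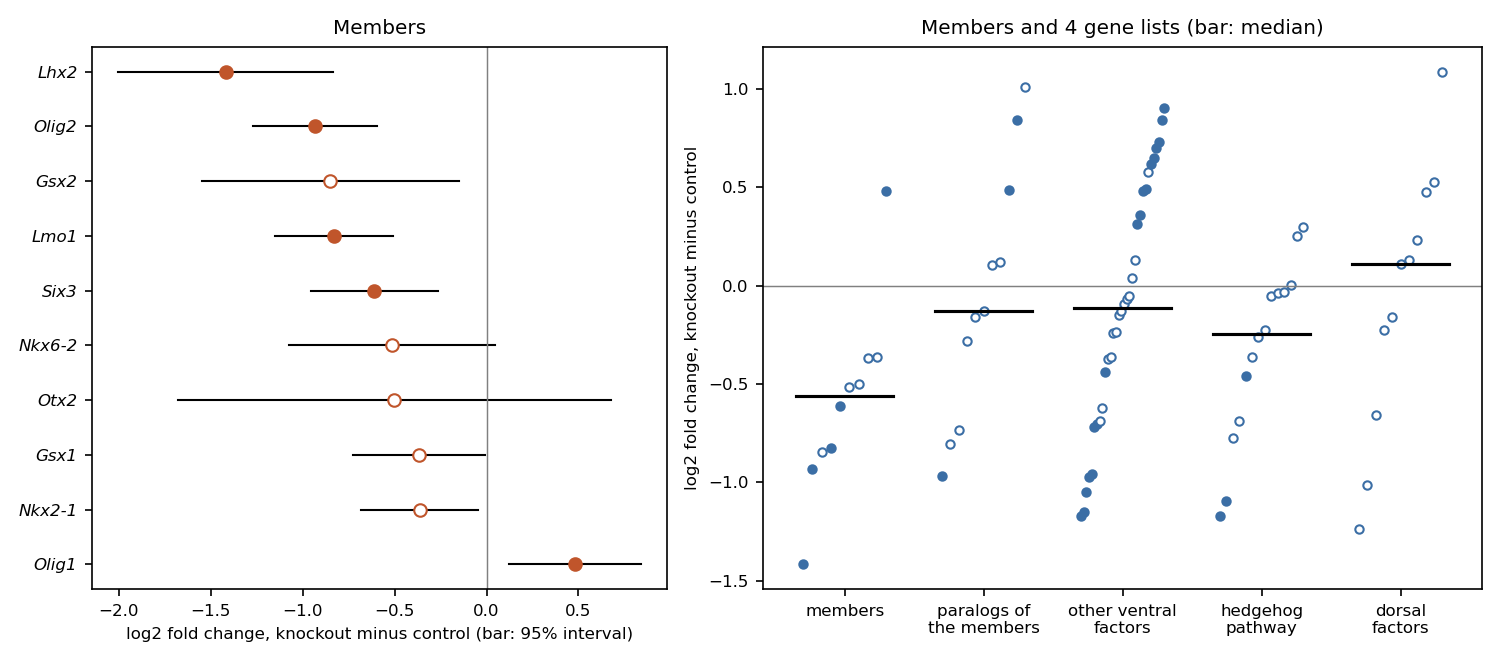
Left, log2 fold change (knockout minus control) of each member with its 95% interval; right, the members beside the tested genes of 4 lists, with the median of each as a bar. Filled points have an adjusted p under 0.05: Lhx2, Olig2, Lmo1 and Six3 lie below 0 and Olig1 above, and the median of the members is -0.56 against -0.11 for the other ventral factors, which moves to 0.02 without knockout replicate 3.

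Levels between members were compared per kilobase of exon. In control the order was Nkx2-1 (2012 ± 363 normalized counts per kilobase, SD, n = 4), Lmo1 (934 ± 101), Olig2 (554 ± 62.2), Lhx2 (261 ± 115), Gsx2 (99.9 ± 45.1), Gsx1 (80.8 ± 21.0), Otx2 (43.2 ± 16.2), Olig1 (35.8 ± 7.18), Six3 (35.6 ± 5.71) and Nkx6-2 (22.6 ± 6.75). The 4 highest members had ranges that did not overlap with those of their neighbours in this order, and from Gsx2 down each neighbour overlapped the next. In knockout Nkx2-1 (1563 ± 275, SD, n = 5), Lmo1 (535 ± 122) and Olig2 (295 ± 71.3) kept their order. Lhx2 (93.1 ± 20.1) then overlapped Gsx1 (61.7 ± 10.4), and Gsx2 (53.8 ± 17.9), Olig1 (49.96 ± 9.27), Otx2 (36.7 ± 33.9), Six3 (23.4 ± 4.78) and Nkx6-2 (15.9 ± 5.72) followed. Olig1 thus stood before Otx2 in knockout and after it in control, a step within the spread of both groups.

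Members were also set against Nkx2-1 in the same library. The log2 ratio of Olig2 to Nkx2-1 averaged -2.02 ± 0.20 over the controls (SD, n = 4) and -2.58 ± 0.15 over the knockouts (SD, n = 5), lower in each knockout than in each control. By exact two-sided permutation p was 0.0159, adjusted 0.0582 over the 11 pairs. For Olig1 over Nkx2-1 the difference was 0.84, higher in each knockout, with the same exact permutation p values. Lhx2 over Nkx2-1 differed by -1.05 (exact permutation p = 0.0317, adjusted 0.0873), with 4 of 5 knockouts below every control. Gsx1 over Nkx2-1 differed by -0.0027 (exact permutation p = 1). No pair passed after adjustment. For pairs at the lowest possible exact p, that outcome was set by the numbers of libraries and pairs, and it decides nothing. The other differences from Nkx2-1 lay between -0.48 and -0.14.

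**Figure D4:**
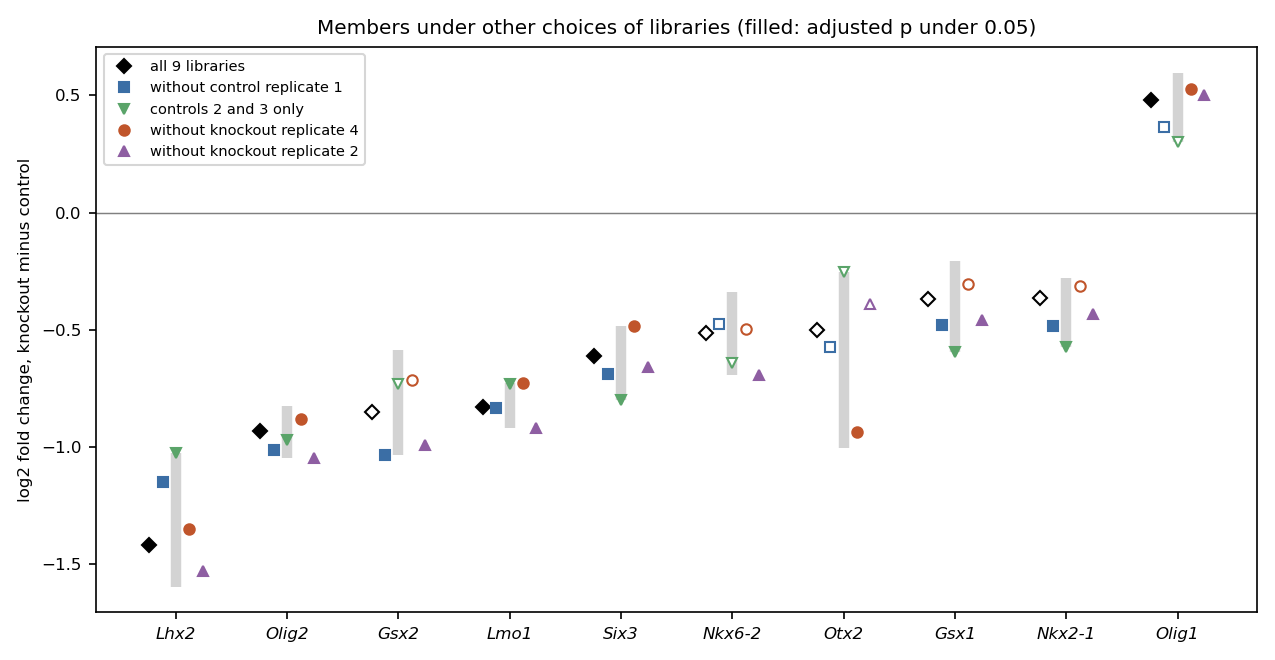
Log2 fold change (knockout minus control) of each member from all 9 libraries and under 4 other choices of libraries; filled symbols have an adjusted p under 0.05 and the grey bar spans all fits run for the gene. Lhx2, Olig2, Lmo1 and Six3 are filled throughout, Otx2 moves to -0.94 without knockout replicate 4, and Nkx2-1 to -0.49 without control replicate 1.

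The likeness of other genes was measured as the root mean square difference between log2 profiles over the 9 libraries, each centred on its own mean, for 9572 candidate genes whose mean was 50 or more. Olig2 was most like Ticrr (0.0777) and Cdk2 (0.0808), which serve the start of DNA replication. Lmo1 was most like Ckb (0.121) and Asb4 (0.123), and Lhx2 like Id4 (0.258) and Ung (0.263), an inhibitor of bHLH factors and a DNA glycosylase. Six3 was most like Klf15 (0.0869) and Phka1 (0.134), Nkx2-1 like Slc7a1 (0.103) and St18 (0.117), and Gsx1 like Ptpn21 (0.113) and Gse1 (0.151). Gsx2 was most like the mitotic genes Ncapg (0.307) and Mastl (0.311), Nkx6-2 like Hps3 (0.198) and Igsf11 (0.214), Olig1 like Frs3 (0.106) and Zswim4 (0.115), and Otx2 like Igfbp5 (0.326) and Slit2 (0.370). Among the members, Nkx2-1 and Gsx1 were nearest to each other (0.170), as were Olig2 and Lmo1 (0.201). Otx2 was at least 0.835 from each other member. These distances depend on how much each gene varied itself. A flat profile would lie 0.749 from Otx2, 0.297 from Nkx2-1 and 0.312 from Gsx1.

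Other transcription factors of the ventral telencephalon changed in both directions. Of 34 listed, 32 were tested: 10 rose, 8 fell and 14 did not pass, with a median log2 fold change of -0.11. Of all genes tested, 17.2% were called higher and 17.3% lower. Among those that rose were Sox6, Lhx6, Ebf1, Sp9, Dlx5, Sox1 and Dlx1. Those that fell were Gli3, Meis2, Hes5, Sox3, Hes1, Nr2f1, Tcf7l1 and Vax1. Sox3, an HMG box gene of neural progenitors, fell by 0.97 on the log2 scale (adjusted p = 8.81e-05), and Meis2, a homeobox gene of the lateral eminence, by 1.15 (adjusted p = 0.000699). Without knockout replicate 3, 6 of the list rose and the median was 0.02, on the other side of 0. The median was -0.21 without control replicate 3 and -0.17 without either of knockout replicates 1 and 2.

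Close relatives of the members were mostly low. Of 27 listed paralogs, 16 were under the filter, among them Nkx2-2, Nkx2-4, Nkx6-1, Olig3 and Six6, and 11 were tested. Of these 2 rose, Lhx6 (0.84, adjusted p = 0.00534) and the LIM-only gene Lmo3 (0.49, adjusted p = 0.00532), and 1 fell, Six5 (-0.97, adjusted p = 0.00301 by limma). Both counts were near or under the shares of all genes tested, 17.2% called higher and 17.3% called lower. Lmo3 rose from 617 ± 107 (SD, n = 4) to 859 ± 86.1 (SD, n = 5), while its paralog Lmo1 fell and Lmo4 had a log2 fold change of -0.16 (adjusted p = 0.178). Lhx6, a LIM homeobox gene of postmitotic MGE neurons, rose from 2999 ± 948 (SD, n = 4) to 5210 ± 644 (SD, n = 5), while the progenitor gene Lhx2 fell. Nkx2-3 also fell without knockout replicate 2 (-1.08, adjusted p = 0.0263). The median of the 11 was -0.13, and it turned sign, to between 0.02 and 0.13, when control replicate 1 or 4 or knockout replicate 1, 2, 3 or 4 was left out. Without control replicate 3 it was -0.22.

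Of 14 hedgehog pathway genes tested, which carry the ventral signal, 3 fell, 0 rose and 11 did not pass, with a median log2 fold change of -0.24. The share that fell was near the 17.3% of all genes called lower. The median was -0.09 without knockout replicate 3, -0.14 without knockout replicate 1 and -0.51 without knockout replicate 4. Smo, the signal transducer, fell from 872 ± 45.8 (SD, n = 4) to 637 ± 69.6 (SD, n = 5) (log2 fold change -0.46, adjusted p = 0.00206 by limma). Gli3, which acts mainly as a repressor in this pathway, fell by 1.17 on the log2 scale (adjusted p = 0.00572), and the target and inhibitor Hhip by 1.10 (adjusted p = 0.017). The Hhip call was lost without control replicate 3 (adjusted p = 0.0542). Gli1 and Ptch1, direct targets of the signal, had log2 fold changes of -0.69 (adjusted p = 0.159) and -0.23 (adjusted p = 0.271). Without control replicate 1, Ptch1 also fell (-0.43, adjusted p = 0.00485). Boc fell without knockout replicate 4 (-1.14, adjusted p = 0.0482), and Disp1 rose without knockout replicate 3 (0.37, adjusted p = 0.0386).

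Dorsal patterning factors gave no calls. Of 14 listed, 11 were tested, and 0 rose and 0 fell, with a median of 0.11. Dmrt3 and Emx2, which pattern cortical progenitors, had the smallest p, with log2 fold changes of -1.24 (adjusted p = 0.234) and -1.02 (adjusted p = 0.235). Both were spread widely in control, where Emx2 was at 67.9 ± 70.5 (SD, n = 4). Without control replicate 1, the library with the highest sum of cortical markers, the median was 0.97 and 1 gene rose, Tbr1 (1.23, adjusted p = 0.0191). The median lay below 0, between -0.66 and -0.16, when control replicate 2, 3 or 4 or knockout replicate 4 or 5 was left out. Hypothalamic and diencephalic markers were low in all libraries: 1 of 10, Foxd1, passed the filter, and the summed count, led by Foxd1 and Otp, was 24.8 to 50.8 in control and 17.2 to 74.6 in knockout, highest in knockout replicate 5.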

How the data were processed

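RNA was sequenced in 9 MGE libraries made from 500 ng of total RNA, per the labels' protocols. Each deposited value is a signal: the authors divided read counts by 1 size factor per library, as the values show, since in each library all values above 0 were within 0.01 of whole multiples of 1 step. Size factors were 0.989 to 1.05. Build mm10, DESeq2, R 3.4.0, HTSeq 0.9.1 and TopHat2 2.1.1 are listed per the submitters' processing notes. What each did, and the strand setting, is not given in the sources used here. Libraries were grouped by their titles. Of the 48526 genes, 48058 matched a symbol; positions and exon lengths are from GENCODE M21 (same build).

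Limma 3.58.1 (trend, robust; R 4.3.3, statmod 1.5.0), two-sided, was fitted to log2(normalized count + 1) for the 13780 genes whose mean was 10 or more, with a threshold of 0.05 after Benjamini-Hochberg adjustment. Ratios of members were compared with exact two-sided permutation tests (SciPy 1.17.1), added after the table was read. The procedure was tested on simulated data. That simulation held no deviant libraries, and its changes were larger than most of the member estimates, so it says little about calls such as these. Same-numbered libraries were not treated as pairs: no label pairs them, and their deviations from group means correlated between -0.117 and 0.137. Alternatives were other pseudocounts, filters, scalings, a plain variance model, the replicate block, a fold minimum, fewer controls and each library left out. The members and lists were chosen with earlier results of these data known. Named genes were all members and, per list, up to 3 called genes with the smallest p (otherwise 2), the 2 most abundant markers and the 2 most alike genes; other names were chosen after their values were seen. Some genes that this rule names are not reported here.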

Additional observations from a re-analysis of the deposited data

Results flagged for a closer look

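Otx2 stood out in 1 library of each group, by Dixon's test of the gap to the nearest library, which chance passes in about 1 of 20 groups. The test was run in both groups for all members, Ctnnb1, Six3os1 and Otx2os1. Among so many tests some flags can arise by chance. It was at 285 in control replicate 4, the Ctnnb1fl/wt library, against 143 to 151 in the other controls. It was at 410.5 in knockout replicate 4, against 83.1 to 106 in the other knockouts. The opposite-strand transcript Otx2os1 was at 17.2 in knockout replicate 4, against 0.96 to 3.96 in the other knockouts.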

How the results depend on the processing

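All members kept the direction of their log2 fold change in all fits run, and Lhx2, Olig2, Lmo1, Six3 and Ctnnb1 their calls. The count of higher members (1) was 0 without trend and robust, with control replicates 2 and 3 only, with control replicate 1 and knockout replicate 4 both left out (an alternative chosen after seeing the data) and with a fold minimum of 1 on the log2 scale; that minimum left 1 lower member, 0 paralogs in either direction, and 0 higher and 3 lower other ventral factors. Other ventral factors numbered 6 higher without trend and robust, and 5 higher and 4 lower with control replicates 2 and 3 only. Among dorsal factors 1 rose and 1 fell with no filter, and 1 rose with both libraries left out. Over all genes, 2369 rose and 2380 fell; 1387 and 1112 with control replicates 2 and 3 only, 583 and 256 with the fold minimum. Leaving out 1 library gave 0 to 1 higher and 4 to 8 lower members, 2 to 2 and 1 to 2 paralogs, 6 to 9 and 7 to 10 other ventral factors, 0 to 1 and 2 to 4 hedgehog genes, 0 to 1 and 0 to 0 dorsal factors, 1857 to 2390 and 1686 to 2417 of all genes, and -0.59 to -0.47 for Ctnnb1. With the replicate block, 1 member was higher and 4 lower, and 1829 and 1681 of all genes; its fold changes equal those without knockout replicate 5, which forms its own block. With control replicate 1 left out, 2011 genes fell. The causes were not tested. A count model was not run. Values were whole multiples of a step in every library, but the unit check did not accept most columns as whole reads, because their steps lie close to 1. Members such as Nkx6-2, at 19.1 to 60.3 counts, are limited by depth.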
